A study of Mus musculus with 9 samples.

Results

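The genes described here are 54 genes of the endoplasmic reticulum (ER) that fold, translocate, glycosylate, degrade or sense newly made proteins. They were taken by gene symbol from a table of 55322 genes whose values are fragments per kilobase of exon length, scaled to the reads counted in each library (FPKM). All 54 were found and all 54 passed the filter on low values, a mean of at least 0.05 FPKM, in every comparison. By role they were 13 ER chaperones, co-chaperones and lectins, 4 protein disulphide isomerases, 11 subunits of the translocon, its associated complex and signal peptidase, 7 subunits of the oligosaccharyltransferase, 11 genes of ER-associated degradation, 6 stress sensors or genes of their signalling, and 2 KDEL receptors.

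RNA was sequenced from 3 groups of 3 libraries each, all from wild-type C57BL/6 mice. B cells came from the BM 48 h after intraperitoneal LPS, the lipopolysaccharide of Gram-negative bacteria, at 5 mg/kg, and were sorted into CD11b+ and CD11b- cells after depletion of T, NK, granulocytic and erythroid cells. CD11b is an integrin chain used as a pan-myeloid surface marker. Peritoneal macrophages (PMs), sorted as CD11b+F4/80+ cells, came from naive mice that received no LPS, so cell type, tissue and LPS cannot be told apart in any comparison of B cells with PMs.

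Each library held 18014658 to 35251215 reads on genes, and nothing in the labels says that replicates are separate animals, so the p-values measure only the spread between these libraries. Defining markers were where the labels place them: the summed FPKM of 10 B cell markers was 12881 to 16041 in CD11b+ B cells, 12774 to 14685 in CD11b- B cells and 132 to 254 in PMs, and that of 10 macrophage markers was 84.2 to 284, 35.2 to 48.5 and 20601 to 55153. Itgam, which encodes CD11b, had FPKM of 1.92, 1.31 and 1.51 in CD11b+ and 0.40, 0.251 and 0.869 in CD11b- B cells, a log2 fold change of 0.79 ± 0.25, adjusted p = 0.50 by limma on log2(FPKM + 1). In bulk libraries, fewer cells of a type and less RNA per cell cannot be told apart. In each group 1 library held the most extremes over 12493 genes with a mean of at least 1 FPKM. CD11b+ replicate 3 was the lowest of its group in 43.7% and the highest in 37.8% of them, CD11b- replicate 3 in 38.6% and 39%, and PM replicate 1 in 32.7% and 48.2%.

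Proteins bound for secretion or for membranes enter the ER through the Sec61 translocon, lose their signal peptide, receive N-linked glycans from the oligosaccharyltransferase and are folded by chaperones and disulphide isomerases. Proteins that fail to fold are moved back to the cytosol and degraded, a process called ER-associated degradation. When unfolded proteins build up, the sensors IRE1 (Ern1), PERK (Eif2ak3) and ATF6 (Atf6) start the unfolded protein response, in which IRE1 splices the Xbp1 mRNA and PERK raises the translation of ATF4. B lineage cells that secrete antibody are known for a large ER and high levels of many of these genes.

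Promoters of 44 of the 54 genes were found by symbol in a RefSeq table on the mouse build GRCm38.p6, which holds the 250 bases before and 50 bases after each start site. The ER stress response element (ERSE), the letters CCAAT and CCACG with any 9 bases between them on either strand, is a known binding site of ATF6 with the factor NF-Y. It was present in 9 of these 44 genes (20.5%), namely Calr, Canx, Creld2, Derl3, Dnajc3, Hsp90b1, Hspa5, Pdia6 and Syvn1, and in 0.137% of all 27025 genes in the table (0.119% of 32851 promoters). ERSE-II, the letters ATTGG and CCACG with any 1 base between them, was present in Dnajb11 and Herpud1, 4.55% against 0.0444% of all genes. The letters TGACGTGG (UPRE) and TGATGNAAT (CARE) were in 0 of the 44 genes and in 0.714% and 1.08% of all genes, which says only that these letters are not in this window. The 2 ERSE patterns do not overlap in any of these promoters.

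The 250 bases upstream of 5 ERSE genes are shown because they hold the motif and are described one by one below. They were chosen after their values were seen, and of the 5 only Creld2 passed the test between the B cell groups. They run 5′ to 3′ on the strand of the gene and end at the base before the start site, and capitals mark each ERSE match, which on the opposite strand begins with CGTGG and ends with ATTGG. On GRCm38.p6 they lie at chr15:88819396-88819645, plus strand (Creld2), chr10:75893148-75893397, plus strand (Derl3), chr10:86705445-86705694, minus strand (Hsp90b1), chr2:34771840-34772089, plus strand (Hspa5) and chr19:6046326-6046575, plus strand (Syvn1).
Creld2: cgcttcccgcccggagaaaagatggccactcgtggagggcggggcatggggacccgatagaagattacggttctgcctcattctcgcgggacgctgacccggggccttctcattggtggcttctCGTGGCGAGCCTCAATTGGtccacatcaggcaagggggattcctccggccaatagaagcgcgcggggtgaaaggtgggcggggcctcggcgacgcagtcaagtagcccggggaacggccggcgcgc
Derl3: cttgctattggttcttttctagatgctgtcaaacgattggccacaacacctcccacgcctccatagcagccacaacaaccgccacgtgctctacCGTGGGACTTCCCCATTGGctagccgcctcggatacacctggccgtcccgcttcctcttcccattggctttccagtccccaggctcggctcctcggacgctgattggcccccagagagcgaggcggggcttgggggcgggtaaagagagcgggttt
Hsp90b1: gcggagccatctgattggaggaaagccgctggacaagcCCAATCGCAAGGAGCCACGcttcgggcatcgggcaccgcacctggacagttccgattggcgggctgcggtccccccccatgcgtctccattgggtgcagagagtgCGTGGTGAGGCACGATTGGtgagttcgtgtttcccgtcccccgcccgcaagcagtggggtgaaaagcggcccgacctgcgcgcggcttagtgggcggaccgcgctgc
Hspa5: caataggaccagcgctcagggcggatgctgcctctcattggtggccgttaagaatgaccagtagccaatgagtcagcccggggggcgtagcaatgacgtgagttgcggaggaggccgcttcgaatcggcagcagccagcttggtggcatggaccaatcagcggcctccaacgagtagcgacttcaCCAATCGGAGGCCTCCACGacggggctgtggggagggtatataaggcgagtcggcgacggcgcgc
Syvn1: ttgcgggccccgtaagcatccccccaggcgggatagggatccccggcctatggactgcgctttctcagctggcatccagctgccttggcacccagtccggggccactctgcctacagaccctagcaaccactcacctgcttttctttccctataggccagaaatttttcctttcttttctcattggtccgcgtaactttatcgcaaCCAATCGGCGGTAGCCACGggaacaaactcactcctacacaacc
The match lay 126 to 108 bases before the start in Creld2, 156 to 138 in Derl3, 65 to 47 in Hspa5 and 44 to 26 in Syvn1. Hsp90b1 held 2 matches, at 212 to 194 and at 107 to 89 bases before the start, on opposite strands.

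All 54 genes were read in every group. The median over the 54 genes of the group mean was 49.2 FPKM in CD11b+ B cells, 41.1 FPKM in CD11b- B cells and 49.6 FPKM in PMs. The highest mean level per length in both B cell groups, though not in every library, was that of Pdia4, a disulphide isomerase, with FPKM of 277, 248 and 190.0 in CD11b+ B cells, 201, 171 and 173 in CD11b- B cells and 62.5, 87.2 and 107 in PMs. In PMs it was that of Pdia3, the isomerase that works with calnexin and calreticulin on glycoproteins, with FPKM of 252, 388 and 356 against 233, 205 and 134 in CD11b+ and 185, 143 and 143 in CD11b- B cells. The lowest mean level was that of Ern1 in both B cell groups and of Derl3 in PMs, where Derl3 had as few as 7 reads in a library. In the B cell libraries every one of the 54 genes had at least 148 reads.

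Summed over the 54 genes, the FPKM was 3755, 3433 and 3230.3 in the CD11b+ libraries, 2808, 2628 and 2767 in the CD11b- libraries and 3479, 4829 and 4560.4 in the PM libraries. The sums of CD11b+ and CD11b- B cells did not overlap. As a share of the FPKM of all genes, however, they were 0.724% to 0.977% in CD11b+ and 0.699% to 0.775% in CD11b- B cells, which overlapped through CD11b+ replicate 3, and 0.824% to 1.08% in PMs. PM replicate 1 was the lowest of the 3 PM libraries for 34 of the 54 genes (63%), against 32.7% of all 12493 genes with a mean of at least 1 FPKM. Each gene's deviation from the mean of the other 2 libraries of its group, on the log2(FPKM + 1) scale, was correlated with log2 of its exon length. Over the 54 genes this correlation was -0.56 in PM replicate 2, -0.42 in CD11b+ replicate 3, 0.40 in PM replicate 1 and 0.44 in CD11b+ replicate 2, and -0.23 to 0.29 in the other 5 libraries. Over all 12493 of those genes it was -0.06, -0.12, 0.01 and 0.10 in the same 4 libraries. This is a description across genes of single libraries, which are not independent.

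The comparison of CD11b+ with CD11b- B cells asks what sets apart the B cells that carry a myeloid marker after LPS. Creld2 and Sdf2l1, both lumenal ER proteins whose transcripts rise in the unfolded protein response, were higher in CD11b+ B cells, by 3.23 and 2.37 times as ratios of mean FPKM. These were the 2 of the 54 genes that passed the threshold, an adjusted p under 0.05 by limma on log2(FPKM + 1) with Benjamini-Hochberg adjustment over all 21778 genes tested, and 0.0689% of all genes passed it as higher. Of the 54 genes 0 were called lower, beside 0% of all genes. The means of 44 of the 54 genes were higher in CD11b+ B cells, beside 55.1% of all genes. The 3 libraries of each group did not overlap for 19 genes that were higher and 2 that were lower, beside 8.63% and 6.32% of all genes. At an unadjusted p under 0.05, 15 were higher and 2 lower, beside 4.65% and 3.04%. The median log2 fold change was 0.29 over the 54 genes and 0.03 over all genes.

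**Figure D1:**
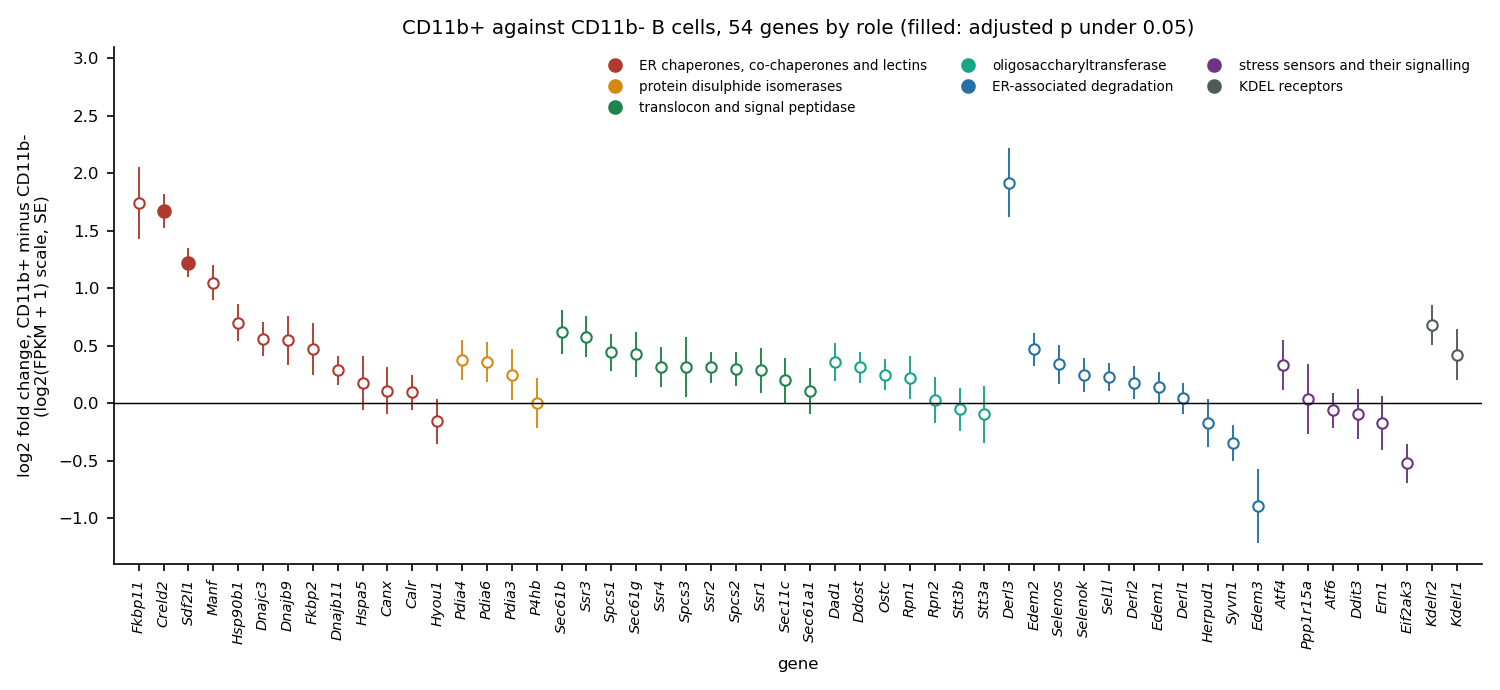
Log2 fold change of each of the 54 genes, CD11b+ minus CD11b- B cells, on the log2(FPKM + 1) scale (y axis; bars are the SE from limma), with genes on the x axis grouped and coloured by role. Filled points, Creld2 (1.67) and Sdf2l1 (1.22), are those with an adjusted p under 0.05; Derl3 (1.92) and Edem3 (-0.89) are the extremes.

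Creld2 is a disulphide isomerase-like protein that is secreted under ER stress. Its FPKM was 162, 135 and 161 in the CD11b+ libraries and 46.8, 53.3 and 41.9 in the CD11b- libraries. Every CD11b+ library was above every CD11b- library, and the log2 fold change was 1.67 ± 0.15, adjusted p = 0.0135 (limma, SE). In PMs it was 55, 117 and 123, so that all 3 PM libraries lay between the B cell groups. The gene (ENSMUSG00000023272) lies at chr15:88819646-88826683 on GRCm38 by GENCODE M21, and Sdf2l1 (ENSMUSG00000022769) at chr16:17130138-17132383.

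Sdf2l1, a partner of the chaperone Hspa5 that helps keep misfolded proteins soluble, had FPKM of 117, 97.8 and 106 in CD11b+ and 46.3, 43.4 and 45.4 in CD11b- B cells. The groups lay far apart relative to their spread, with a log2 fold change of 1.22 ± 0.12, adjusted p = 0.0275 (limma, SE). PM libraries were uneven, at 73.7, 353 and 237. By limma both calls were lost without a filter on FPKM, with all 9 libraries in one fit, with a replicate block by the number in the descriptions, and without any single library other than CD11b+ replicate 3. That of Sdf2l1 was also lost without a trend. In these fits 0 of the 54 genes were called, or Creld2 alone without a trend, beside 0.00535%, 0.14% and 0% of all genes called higher in the first 3 and 0.0137% to 0.0319% with a library left out. Creld2 was called under 15 of 23 and Sdf2l1 under 14 of 23 alternatives, with log2 fold changes of 1.59 to 1.85 and 1.16 to 1.29 and adjusted p up to 0.656 and 0.734.

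Of the other 11 chaperones 0 passed the threshold. Manf, a small secreted protein that binds Hspa5, had FPKM of 41.4, 35.9 and 48.3 in CD11b+ and 18.8, 18.6 and 21.3 in CD11b- B cells, without overlap, and a log2 fold change of 1.05 ± 0.15, adjusted p = 0.0767. Fkbp11, a prolyl isomerase of secretory cells, had 7.37, 6.34 and 14.9 against 1.64, 1.96 and 2.35 FPKM, and a log2 fold change of 1.74 ± 0.31, adjusted p = 0.153. Hsp90b1 (GRP94), the Hsp90 of the ER and a chaperone of Toll-like receptors and integrins, had 266, 225 and 204 against 153, 123 and 149 FPKM and a log2 fold change of 0.70 ± 0.16, adjusted p = 0.311. Each of these 3 genes was higher in every CD11b+ library than in every CD11b- library. On whole reads recovered for all genes, DESeq2 called 6 of the 54 genes higher, which were Creld2, Sdf2l1, Manf, Derl3, Fkbp11 and Hsp90b1, and edgeR called 3, which were Creld2, Sdf2l1 and Manf. Of all genes, DESeq2 called 1.89% and edgeR 0.269% higher. The overlap of Manf with Rbm15b on the same strand, and of Hsp90b1 with a noncoding gene on the same strand, leaves their reads less certain than those of Creld2 and Sdf2l1.

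Hspa5 (BiP), the main ER Hsp70 and the protein that holds the stress sensors inactive, had FPKM of 252, 237 and 139 in CD11b+ and 199, 168 and 170.2 in CD11b- B cells. CD11b+ replicates 1 and 2 were above all CD11b- libraries and CD11b+ replicate 3 was below them. The log2 fold change was 0.18 ± 0.24, adjusted p = 0.794. Without that library it was 0.45, adjusted p = 0.347. Of the 13 genes of this role, 2 were called higher, beside 0.0689% of all genes, and 11 did not pass the test. The median log2 fold change was 0.55 over the 13 genes and 0.03 over all genes. Dnajb9 (ERdj4) and Dnajc3 (p58IPK), co-chaperones of Hspa5, had log2 fold changes of 0.55 ± 0.21, adjusted p = 0.636 and 0.56 ± 0.15, adjusted p = 0.389. The lectins Calr and Canx, which bind monoglucosylated glycoproteins, had 0.09 ± 0.15, adjusted p = 0.832 and 0.11 ± 0.20, adjusted p = 0.856, or 0.23, adjusted p = 0.633 and 0.32, adjusted p = 0.597 without CD11b+ replicate 3. Hyou1, a nucleotide exchange factor of Hspa5, was the 1 gene of the 13 with a lower mean in CD11b+ B cells (-0.16 ± 0.20, adjusted p = 0.787), and had 0.02, adjusted p = 0.979 without CD11b+ replicate 3.

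**Figure D2:**
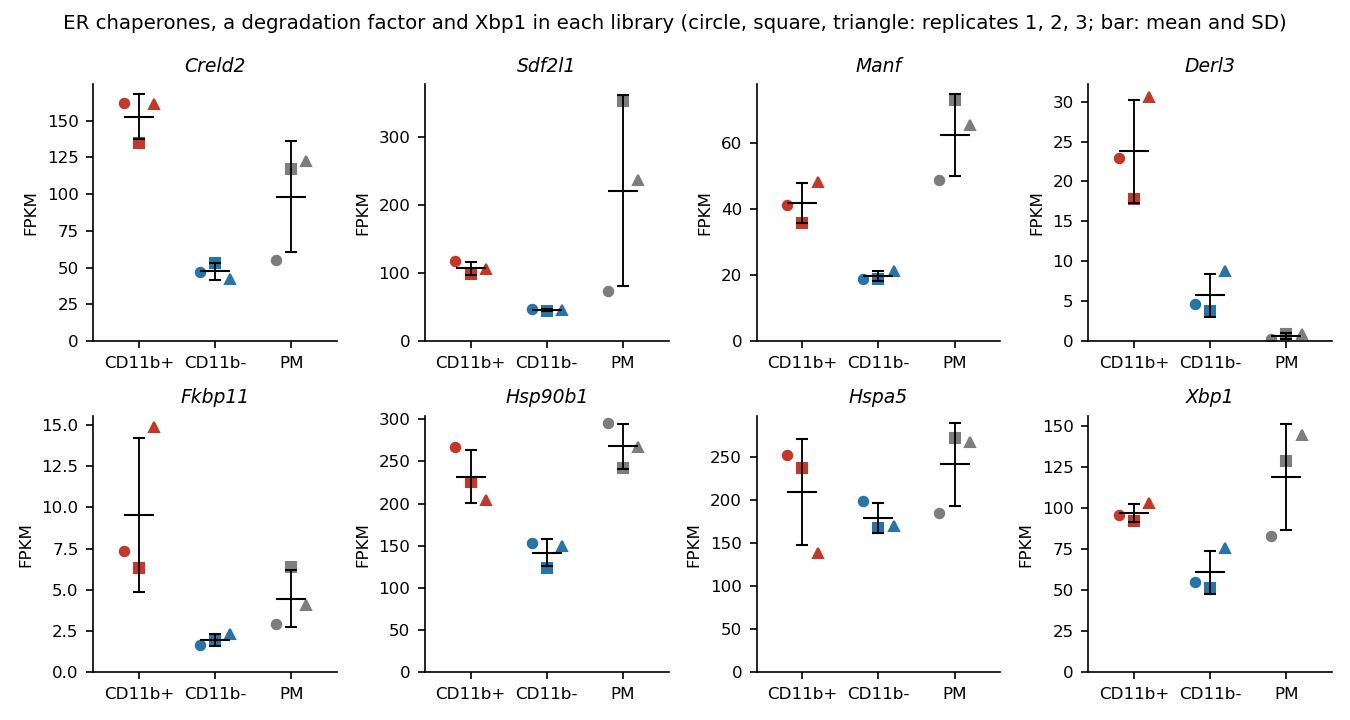
FPKM (y axis, from 0) of 8 genes in each library of CD11b+ B cells, CD11b- B cells and PMs (x axis); symbols are replicates 1 to 3, the bar is the mean and its whiskers the SD of 3 libraries. For Creld2, Sdf2l1, Manf, Derl3, Fkbp11, Hsp90b1 and Xbp1 all CD11b+ points lie above all CD11b- points, and for Hspa5 they do not.

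Of the 4 disulphide isomerases 0 passed the test, with log2 fold changes from 0.01 to 0.38, the largest that of Pdia4 (0.38 ± 0.18, adjusted p = 0.676), whose CD11b+ and CD11b- libraries overlapped through CD11b+ replicate 3. Without that library it had 0.53, adjusted p = 0.271. P4hb, which also serves collagen prolyl hydroxylase, had FPKM of 124, 110.1 and 68.5 against 105, 89.6 and 98.1 and a log2 fold change of 0.01 ± 0.22, adjusted p = 0.995. Without CD11b+ replicate 3 it had 0.26, adjusted p = 0.625. For the 11 translocon and signal peptidase genes all 11 means were higher in CD11b+ B cells and 0 passed the test. The log2 fold changes ran from 0.11 to 0.62, the largest being that of Sec61b, the beta subunit of the translocon. It had FPKM of 95.4, 85.1 and 137 against 67.4, 72.7 and 61.1 and 0.62 ± 0.19, adjusted p = 0.499. Without CD11b+ replicate 3 it had 0.42, adjusted p = 0.374 and the largest was that of Ssr3, at 0.65, adjusted p = 0.379. Of the 7 oligosaccharyltransferase genes 0 passed the test, the median log2 fold change was 0.22, and the catalytic subunits Stt3a and Stt3b had -0.10 ± 0.25, adjusted p = 0.906 and -0.05 ± 0.19, adjusted p = 0.937. Without CD11b+ replicate 3 these were 0.20, adjusted p = 0.711 and 0.12, adjusted p = 0.814. Kdelr2, a receptor that returns ER proteins from the Golgi, had FPKM of 26.2, 25.2 and 28.8 against 16.1, 20.2 and 13.1, without overlap, and a log2 fold change of 0.68 ± 0.17, adjusted p = 0.384.

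ER-associated degradation held the extremes of both directions, and 0 of its 11 genes passed the test. Derl3, a derlin of secretory cells that takes part in moving misfolded glycoproteins out of the ER, had FPKM of 23, 17.8 and 30.6 in CD11b+ and 4.59, 3.81 and 8.78 in CD11b- B cells. The groups did not overlap and the log2 fold change was 1.92 ± 0.30, adjusted p = 0.103, the largest of the 54. Its paralogs Derl1 and Derl2 had 0.05 ± 0.13, adjusted p = 0.918 and 0.18 ± 0.14, adjusted p = 0.727. Edem3, a mannosidase-like protein that marks misfolded glycoproteins, had FPKM of 8.09, 5.33 and 6.02 in CD11b+ and 11.1, 8.43 and 21.5 in CD11b- B cells. CD11b- replicate 3 was the highest library, the groups did not overlap, and the log2 fold change was -0.89 ± 0.32, adjusted p = 0.597, whereas Edem1 and Edem2 had 0.14 ± 0.13, adjusted p = 0.727 and 0.47 ± 0.14, adjusted p = 0.499. Over 23 alternatives the log2 fold change of Edem3 ran from -1.16 to -0.53, and it was called lower under 1 of them. Syvn1 (HRD1), the ubiquitin ligase of this pathway, had FPKM of 61.5, 78.5 and 60.7 against 79.9, 77.9 and 97. Its groups overlapped through CD11b+ replicate 2 and the log2 fold change was -0.34 ± 0.16, adjusted p = 0.671. Sel1l, the adaptor of Syvn1, had 21.7, 20.8 and 20.7 against 17.2, 18.1 and 18.3 FPKM, without overlap, and a log2 fold change of 0.23 ± 0.12, adjusted p = 0.688.

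None of the 6 sensors and signalling genes passed the test between the B cell groups. Ern1 (IRE1) was low in B cells, with FPKM of 0.991, 0.883 and 0.955 in CD11b+ and 1.36, 0.761 and 1.53 in CD11b- cells, overlapping groups and a log2 fold change of -0.17 ± 0.24, adjusted p = 0.802. Eif2ak3 (PERK) had 7.15, 9.45 and 9.72 against 13.2, 12 and 13.6 FPKM, with every CD11b+ library below every CD11b- library, and a log2 fold change of -0.52 ± 0.17, adjusted p = 0.521. Atf6 had 10.1, 9.13 and 9.0 against 9.53, 9.17 and 10.9 FPKM, overlapping, and -0.06 ± 0.15, adjusted p = 0.905. These transcripts encode sensors whose activity is set after transcription, and the table does not separate the spliced from the unspliced Xbp1 mRNA.

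Downstream of PERK, Atf4, a factor of amino acid and stress genes, had FPKM of 39.1, 44.4 and 65.7 in CD11b+ and 33.6, 35.7 and 47 in CD11b- B cells and a log2 fold change of 0.33 ± 0.22, adjusted p = 0.727. Ddit3 (CHOP), a stress-induced factor linked to cell death, had 14.8, 15.9 and 18.8 against 15.8, 14.1 and 24.3 FPKM and -0.09 ± 0.21, adjusted p = 0.892. Ppp1r15a (GADD34), which reverses the translational block set by PERK, had 9.37, 11.1 and 17.4 against 8.28, 11.3 and 17.7 FPKM and 0.04 ± 0.30, adjusted p = 0.976. The libraries of both B cell groups overlapped for all 3 genes, and replicate 3 was the highest library of both B cell groups for each. Without CD11b+ replicate 3, Atf4 had 0.12, adjusted p = 0.834, Ddit3 -0.19, adjusted p = 0.805 and Ppp1r15a -0.20, adjusted p = 0.834. Ddit3 overlaps Mars1 on the opposite strand, as Syvn1 does Mrpl49 and Derl2 does Mis12. No source here says whether reads were assigned by strand.

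**Figure D3:**
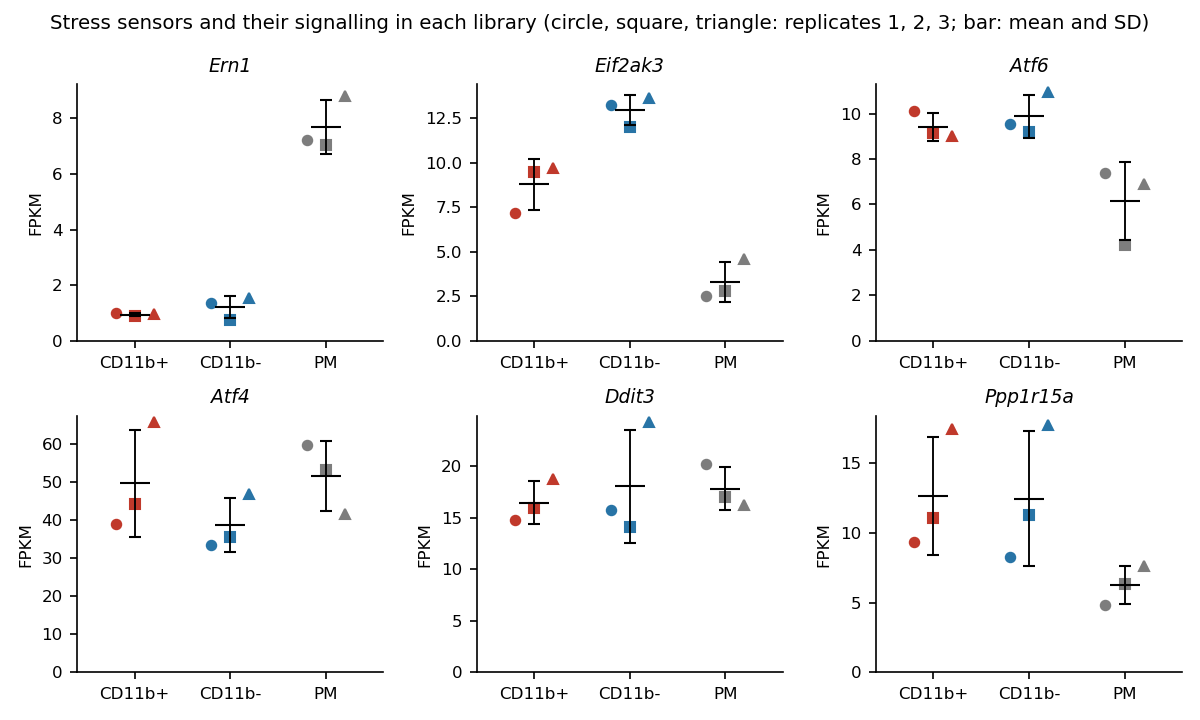
FPKM (y axis, from 0) of the 6 sensors and signalling genes in each library of CD11b+ B cells, CD11b- B cells and PMs (x axis); symbols are replicates 1 to 3, the bar is the mean and its whiskers the SD of 3 libraries. Ern1 is above 7 FPKM in every PM library and below 2 FPKM in every B cell library, and Eif2ak3 runs the other way, below 5 FPKM in PMs and above 7 FPKM in B cells.

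Xbp1, the factor that drives ER expansion in plasma cells, is not among the 54 genes. It had FPKM of 95.7, 92.2 and 103 in CD11b+ and 55.4, 51.7 and 75.8 in CD11b- B cells, without overlap, and a log2 fold change of 0.68 ± 0.17, adjusted p = 0.35. Among other genes of the same compartments, 0 passed the test between the B cell groups in each of 6 lists: 18 other genes of the unfolded protein response, 19 of ER folding and redox, 22 of translocation and glycosylation, 13 of ER-associated degradation, 22 of ER to Golgi transport and 17 chaperones of the cytosol and mitochondria. Their median log2 fold changes lay between -0.10 and 0.09, on both sides of the 0.03 of all genes. The members with the largest difference in each list were Asns, the asparagine synthetase induced by ATF4, at 1.62 ± 0.32, adjusted p = 0.214, Hsp90aa1, the inducible cytosolic Hsp90, at 0.69 ± 0.21, adjusted p = 0.50, and Kdelr3 at 0.66 ± 0.23, adjusted p = 0.59, with Kdelr3 under 2 FPKM in every B cell library. Erlec1, a lectin of ER-associated degradation, had 0.55 ± 0.22, adjusted p = 0.643, the peroxiredoxin Prdx4 0.50 ± 0.13, adjusted p = 0.389, and the translocating chain protein Tram1 -0.48 ± 0.15, adjusted p = 0.521.

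Markers of other cell types moved with the CD11b+ group. The summed FPKM of 10 neutrophil markers was 639.6, 1540.2 and 215 in the CD11b+ libraries and 1.76 to 3.0 in CD11b- B cells, and 3 of the 10 were called higher. That of 10 macrophage markers was 284, 263 and 84.2 against 35.2 to 48.5, with 0 of 9 tested called. That of 10 plasma cell markers, which include Xbp1, was 304, 271 and 667 against 122, 124 and 206, with 0 of 10 called. Of these 10 the means of 8 were higher and of 2 lower in CD11b+ B cells, with log2 fold changes from -0.25 to 3.43. Jchain, the joining chain of secreted IgM and IgA, had FPKM of 101, 83.9 and 449 against 6.18, 17.4 and 22.7, and Mzb1, an ER cofactor of IgM assembly, 59.9, 49.3 and 51.2 against 15.5, 16.3 and 29.8. Jchain, Mzb1 and Xbp1 together made up most of the plasma cell sum in every CD11b+ library. Erythroid markers summed to 38.9 to 50.0 in CD11b+ and 2.22 to 25.5 in CD11b- B cells, and T and NK cell markers stayed at or below 2.26 in every B cell library. The part of these other cell types in the results was not tested.

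**Figure D4:**
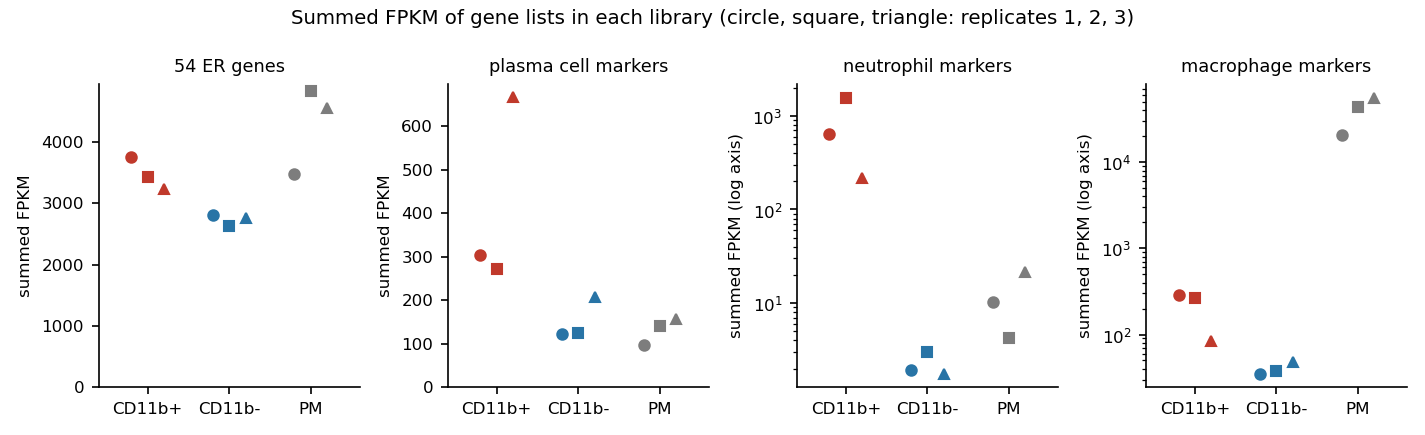
Summed FPKM (y axes; the neutrophil and macrophage panels have log axes) of the 54 genes and of 10 plasma cell, 10 neutrophil and 10 macrophage markers in each library of CD11b+ B cells, CD11b- B cells and PMs (x axis); symbols are replicates 1 to 3. The sums of the 54 genes in CD11b+ B cells, 3230.3 to 3755, lie above those in CD11b- B cells, 2628 to 2808, as do the plasma cell, neutrophil and macrophage sums.

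The promoter window of 9 genes held an ERSE. Between the B cell groups 8 of the 9 means were higher in CD11b+ B cells, Syvn1 being the exception, with log2 fold changes from -0.34 to 1.92 and a median of 0.36. With the 2 ERSE-II genes the median over 11 genes was 0.29, and 9 of their means were higher. The median over the 33 matched genes with neither ERSE nor ERSE-II was 0.30, and 27 of their means were higher. Of the 2 genes called, Creld2 holds an ERSE and Sdf2l1 held none of the 4 patterns in its window.

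Against PMs, which were naive, both B cell groups had lower transcripts of Dnajb9, P4hb, Ddost and Ern1, among others, and higher ones of Derl3, Syvn1, Pdia4 and Eif2ak3. In CD11b+ B cells 8 of the 54 genes were higher and 11 lower than in PMs, beside 21.5% and 8.78% of all 22102 genes tested. In CD11b- B cells 8 were higher and 21 lower, beside 25.8% and 11% of 20985 genes. These comparisons share the PM libraries and are not independent of each other.

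The split between higher and lower depended on the scaling of the libraries. The median log2 fold change of the 54 genes was -0.08 in CD11b+ B cells against PMs as deposited, -0.57 with median-ratio scaling and -0.35 with quantile normalization, while that of all genes was 0.25, 0.12 and 0.06. The count was then 3 higher and 19 lower with median-ratio scaling and 4 higher and 14 lower with quantile normalization, beside 13.2% and 11.6%, and 12.2% and 12.2%, of all genes. For CD11b- B cells against PMs the median was -0.45, -0.98 and -0.70 in that order, that of all genes 0.24, 0.09 and 0.06, and the counts 3 higher and 32 lower, and 5 higher and 29 lower, beside 16.2% and 14.7%, and 16.3% and 14.8%, of all genes. Under both scalings all 11 and all 21 genes called lower were still called. Of those called higher, Derl3, Pdia4 and Syvn1 in CD11b+ and Derl3, Eif2ak3 and Syvn1 in CD11b- B cells were still called under both.

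**Figure D5:**
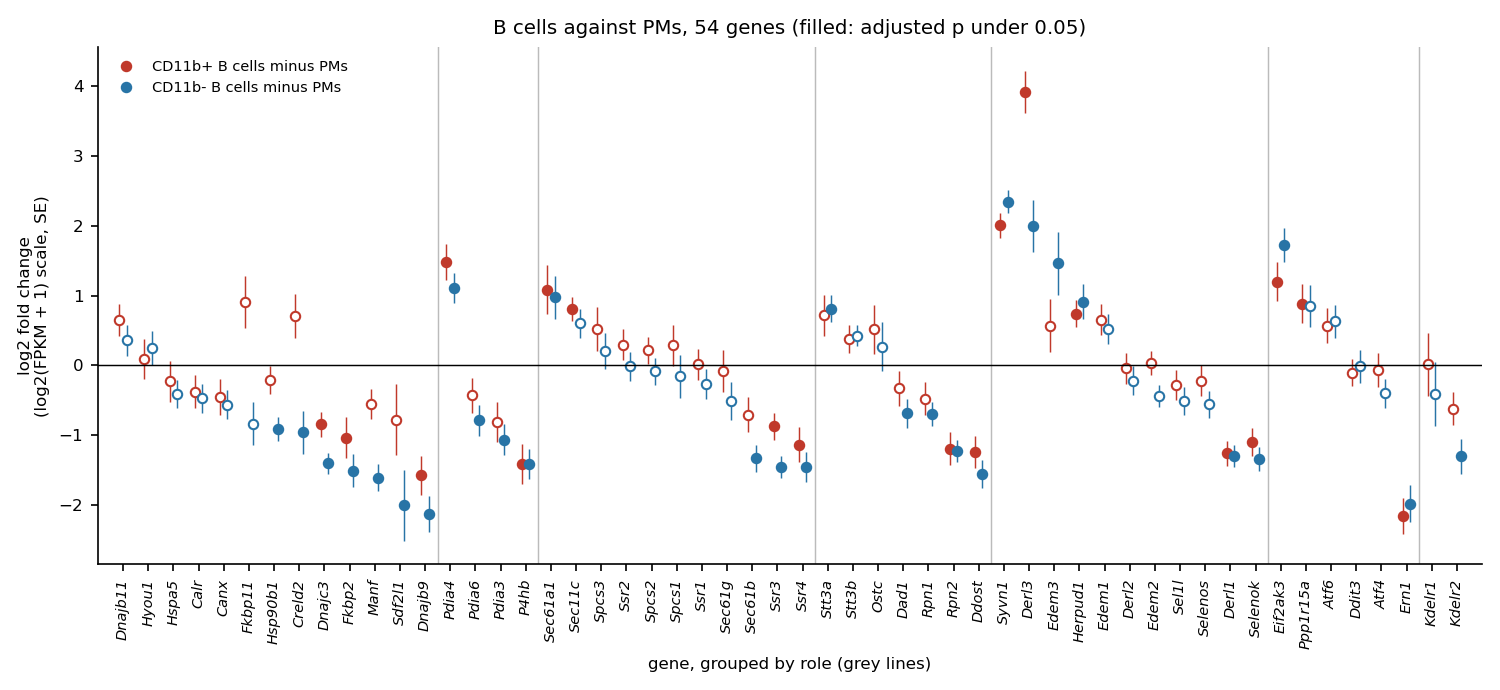
Log2 fold change of each of the 54 genes on the log2(FPKM + 1) scale (y axis; bars are the SE from limma) for CD11b+ B cells minus PMs and CD11b- B cells minus PMs, with genes on the x axis grouped by role between grey lines. Filled points have an adjusted p under 0.05: 8 higher and 11 lower in CD11b+ B cells, and 8 higher and 21 lower in CD11b- B cells, and the 2 comparisons share the PM libraries.

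Of the 11 genes of ER-associated degradation 3 were called higher and 2 lower in CD11b+, and 4 and 2 in CD11b- B cells, beside 21.5% and 25.8% of all genes called higher and 8.78% and 11% called lower. Derl3 had 0.195, 0.876 and 0.845 FPKM in PMs, below every B cell library, and log2 fold changes of 3.92 ± 0.31, adjusted p = 5.59e-05 in CD11b+ and 2.0 ± 0.37, adjusted p = 0.00464 in CD11b- B cells, which the added 1 FPKM understates at such low levels. Syvn1 had 15.1, 15.1 and 17.4 FPKM in PMs and log2 fold changes of 2.0 ± 0.18, adjusted p = 0.000139 and 2.35 ± 0.16, adjusted p = 3.22e-05, all B cell libraries lying above all PM libraries. Pdia4, whose B cell and PM values are given above, had 1.48 ± 0.26, adjusted p = 0.00354 and 1.11 ± 0.22, adjusted p = 0.00643. Herpud1, an ER membrane protein that gathers the degradation complex, had FPKM of 129, 137 and 135, 124, 129 and 211 and 71.7, 71.7 and 97.1 in CD11b+ B cells, CD11b- B cells and PMs, and 0.74 ± 0.19, adjusted p = 0.0212 and 0.91 ± 0.25, adjusted p = 0.0232. Edem3, at 7.72, 2.33 and 3.26 FPKM in PMs, was called higher in CD11b- B cells (1.46 ± 0.45, adjusted p = 0.0364) and had 0.57 ± 0.38, adjusted p = 0.304 in CD11b+ B cells. The calls of Herpud1 held under 12 of 19 and 11 of 19 alternatives, and that of Edem3 under 11 of 22.

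Of the 13 chaperones, co-chaperones and lectins 0 were higher and 3 lower in CD11b+ B cells, and 0 higher and 7 lower in CD11b- B cells. Of all genes, the shares called were 21.5% higher and 8.78% lower in CD11b+ and 25.8% and 11% in CD11b- B cells. Dnajb9 had 58.8, 32.3 and 51.7 FPKM in PMs against 16.4, 11.3 and 17.5 in CD11b+ and 11.5, 10.3 and 7.92 in CD11b- B cells, and fell by 1.58 ± 0.28, adjusted p = 0.00377 and 2.13 ± 0.26, adjusted p = 0.000661 on the log2 scale. P4hb had 195, 324 and 284 FPKM in PMs, above every B cell library, and fell by 1.41 ± 0.29, adjusted p = 0.00821 and 1.42 ± 0.22, adjusted p = 0.00195. Sdf2l1 and Creld2, the genes called between the B cell groups, were lower than PMs in CD11b- B cells, by 2.0 ± 0.51, adjusted p = 0.0181 and 0.96 ± 0.31, adjusted p = 0.045. They had log2 fold changes of -0.78 ± 0.51, adjusted p = 0.287 and 0.71 ± 0.32, adjusted p = 0.129 in CD11b+ B cells. There Sdf2l1 was called lower under 5 of 22 alternatives, with log2 fold changes from -1.62 to -0.31, and Creld2 was called under 0 of 22. Their spread was widest among the PMs, where replicate 1 was the lowest library for both. In CD11b- B cells Sdf2l1 was called under 17 of 22 and Creld2 under 14 of 22 alternatives, and both calls were lost without a filter, without any 1 CD11b- library and without PM replicate 3. That of Creld2 was also lost without PM replicate 2, without a trend and without immunoglobulin genes. Hspa5 had 185, 272 and 267 FPKM in PMs and log2 fold changes of -0.23 ± 0.29, adjusted p = 0.543 and -0.41 ± 0.20, adjusted p = 0.154, and was called under 1 of 22 and 7 of 22 alternatives. Without PM replicate 1 the count of the 54 genes was 7 higher and 13 lower in CD11b+, beside 22.2% and 9.15% of all genes. It was 7 higher and 28 lower in CD11b- B cells, beside 28% and 11.8%. Without CD11b+ replicate 3 it was 7 higher and 12 lower in CD11b+ B cells, beside 21.7% and 7.87%.

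In the translocon and signal peptidase group, Sec61a1, the pore of the translocon, had FPKM of 35.9, 30.4 and 20.5, 24.7, 26.2 and 27.3 and 7.84, 12.9 and 20.2 in CD11b+ B cells, CD11b- B cells and PMs, and was higher in both B cell groups (1.08 ± 0.35, adjusted p = 0.0486 and 0.97 ± 0.31, adjusted p = 0.0401), but not under either of the other scalings. Its calls held under 6 of 19 and 8 of 19 alternatives. Its partner Sec61b, at 155, 215 and 147 FPKM in PMs, had -0.71 ± 0.25, adjusted p = 0.0661 and -1.33 ± 0.19, adjusted p = 0.00143, and was called lower in CD11b+ B cells under 10 of 22 alternatives. Ssr3 and Ssr4, subunits of the translocon-associated complex, were lower in both, Ssr4 by 1.14 ± 0.25, adjusted p = 0.0117 and 1.45 ± 0.22, adjusted p = 0.00173. Of the 7 oligosaccharyltransferase genes 2 were lower in CD11b+ and 4 in CD11b- B cells, beside 8.78% and 11% of all genes. Ddost, a subunit that supports its structure, had 232, 333 and 352 FPKM in PMs against 139.7, 130.0 and 112 and 103, 101 and 100.4 in CD11b+ and CD11b- B cells, and fell by 1.24 ± 0.23, adjusted p = 0.00478 and 1.55 ± 0.20, adjusted p = 0.000798. The catalytic Stt3a was the 1 gene of the 7 called higher, in CD11b- B cells (0.81 ± 0.20, adjusted p = 0.0147), beside 25.8% of all genes, and not under either of the other scalings.

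Of the sensors, Ern1 had 7.21, 7.05 and 8.82 FPKM in PMs, above every B cell library, and fell by 2.16 ± 0.26, adjusted p = 0.00061 in CD11b+ and 1.98 ± 0.26, adjusted p = 0.000956 in CD11b- B cells. Eif2ak3 had 2.53, 2.82 and 4.57 FPKM in PMs, below every B cell library, and log2 fold changes of 1.2 ± 0.27, adjusted p = 0.0128 and 1.72 ± 0.24, adjusted p = 0.0012; the call in CD11b+ B cells was lost under both other scalings. Atf6, at 7.38, 4.21 and 6.91 FPKM in PMs, had 0.57 ± 0.25, adjusted p = 0.129 and 0.63 ± 0.24, adjusted p = 0.0798. Ppp1r15a, at 4.84, 6.32 and 7.59 FPKM in PMs, was called higher in CD11b+ B cells (0.88 ± 0.28, adjusted p = 0.0484), not under either other scaling, and had 0.85 ± 0.30, adjusted p = 0.0608 in CD11b- B cells. Its call in CD11b+ B cells held under 6 of 19 alternatives and was lost without any 1 library. In CD11b- B cells it was called higher under 4 of 19. Atf4, at 59.9, 53.2 and 41.6 FPKM, and Ddit3, at 20.2, 17 and 16.3 FPKM in PMs, passed the test in neither comparison as deposited. Atf4 was called lower in CD11b- B cells under both other scalings and under 7 of 22 alternatives in all. Of the 2 KDEL receptors, Kdelr2, at 49.6, 48.5 and 29.7 FPKM in PMs, fell by 1.3 ± 0.25, adjusted p = 0.00599 in CD11b- B cells and had a log2 fold change of -0.62 ± 0.23, adjusted p = 0.0812 in CD11b+ B cells, where it was called lower under both other scalings and under 8 of 22 alternatives in all.

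Other genes of these pathways were called in both directions against PMs, beside 21.5% of all genes higher and 8.78% lower in CD11b+ and 25.8% and 11% in CD11b- B cells. Of the 6 lists named above, those of ER-associated degradation had 5 higher and 1 lower of 13 in CD11b+. They had 6 and 1 in CD11b- B cells. ER to Golgi transport had 1 higher and 5 lower of 22, and 4 and 6. For unfolded protein response signalling the counts were 4 and 5 in CD11b+ and 2 and 7 in CD11b- B cells, for folding and redox 4 and 5, and 3 and 5, for translocation and glycosylation 3 and 3, and 5 and 7, and for cytosolic and mitochondrial chaperones 6 and 3, and 6 and 3.

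The largest differences were in genes that PMs transcribed and B cells hardly did. Nupr1, a stress-induced chromatin protein, had FPKM of 307, 248 and 213 in PMs, 0.948, 1.03 and 0.282 in CD11b+ and 0.262, 0.251 and 0.409 in CD11b- B cells, and fell by 7.21 ± 0.25, adjusted p = 9.59e-07 and 7.6 ± 0.19, adjusted p = 3.63e-07 on the log2 scale. The cochaperone Bag3 had 14.5, 19.3 and 14.7, 0.797, 0.224 and 0.199 and 0.292, 0.0112 and 0.0487 FPKM in the same order and fell by 3.62 ± 0.29, adjusted p = 6.00e-05 and 3.94 ± 0.25, adjusted p = 2.37e-05. The disulphide isomerase Pdia5 had 8.83, 13.3 and 12.7 FPKM in PMs and under 1 FPKM in every B cell library. Among genes that both cell types expressed, Dpagt1, the first enzyme of N-glycan synthesis, had 32.1, 33.4 and 30.7, 9.32, 10.5 and 8.29 and 8.83, 10.1 and 7.61 FPKM and fell by 1.68 ± 0.18, adjusted p = 0.000321 and 1.76 ± 0.17, adjusted p = 0.000204. The cargo receptors Mcfd2 in CD11b+ B cells, by 1.54 ± 0.29, adjusted p = 0.00506, and Tmed10 in CD11b- B cells, by 1.6 ± 0.17, adjusted p = 0.000317, were the most different of their list. Faf2, which brings a segregase to the ER membrane for degradation, was higher in B cells (1.24 ± 0.34, adjusted p = 0.0263 and 1.6 ± 0.24, adjusted p = 0.00194). Xbp1, at 83.1, 129 and 145 FPKM in PMs, had -0.25 ± 0.24, adjusted p = 0.427 in CD11b+ B cells and fell by 0.94 ± 0.25, adjusted p = 0.0229 in CD11b- B cells.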

How the data were processed

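The authors prepared SMART-seq HT libraries, sequenced read pairs, trimmed them (Trim Galore 0.4.4, Trimmomatic 0.36 and cutadapt 1.16 in the submitters' processing notes), mapped them with STAR 2.7.2b and counted reads on genes with featureCounts 1.6.1. The build is GRCm38 in the study's methods, and the processing notes also name GRCm39. The authors deposited FPKM for 55322 genes, and a second table of counts divided by a size factor (a normalized signal) for 11063 genes selected at a p-value of 0.05 by a test not given in the sources used here; its cluster column was not used. The 54 symbols match 55 rows, since Ddit3 has a second identifier at 0 in every library that was not used.

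Whole reads were recovered from both tables for 100% of values, within 0.05 of a read. Each comparison was fitted with limma 3.58.1 (eBayes with trend, two-sided) on log2(FPKM + 1) over the 6 libraries of both groups, among genes with a mean of at least 0.05 FPKM, with Benjamini-Hochberg adjustment over all genes tested and a threshold of 0.05. The study's methods name DESeq2 for differential expression, but FPKM are not counts, so edgeR 4.0.16 (quasi-likelihood test) and DESeq2 1.42.0 on recovered reads were alternatives. Others were pseudocounts of 0.1 and 0.01, no filter, a mean of at least 1 FPKM, all 9 libraries in one fit, replicate blocks, median-ratio scaling, quantile normalization, removal of immunoglobulin genes, no trend, limma on the normalized counts and each library left out. A filter of 20 reads per library was added after seeing the data.

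The fits were tested on simulated data. There limma recovered most changed genes, but in 1 of the 3 comparisons its false calls exceeded the limit first set for this test, and this limit was then applied only to genes with at least 20 reads per library, because all of its false calls had fewer. Calls of genes with few reads are therefore less certain. Apart from Derl3 in PMs, the 54 genes had at least 144 reads in every library.

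The genes described individually were those called between the B cell groups, the 3 largest differences per comparison and direction, the sensors and Hspa5, the highest in each group, and Xbp1 with the largest of each other list. Others, such as Manf, Hsp90b1 and paralogs, were chosen after their values were seen. The members and lists were chosen with earlier results of these data known. Python packages were pandas 2.3.3, numpy 2.4.6 and matplotlib 3.10.9, and R was 4.3.3.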

Additional observations from a re-analysis of the deposited data

How the results depend on the processing

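The median log2 fold change of the genes fitted ranged over the alternatives from 0.23 to 0.34 between the B cell groups, -0.90 to -0.02 in CD11b+ and -1.27 to -0.34 in CD11b- B cells against PMs. The second table, which is also that of limma on the normalized counts, holds only 41 of the 54 genes. Medians and counts from it are over these 41 genes, among them the medians 0.34, -0.90 and -1.27. Genes absent from it have fewer alternatives, as in 19 against 22 for the comparisons with PMs. In the counts that follow, the share of all genes called under the same setting stands in brackets. Between the B cell groups (2 higher and 0 lower as reported), limma called 0 (0.00535%) higher without a filter, 0 (0.14%) with all 9 libraries in one fit, 1 (0.0735%) without a trend, 5 (0.838%) on the normalized counts and 3 (0.306%) among genes with at least 20 reads. On the second table edgeR called 4 (0.641%) and DESeq2 6 higher and 1 lower (3.37% and 0.793%), and over all genes DESeq2 called 6 (1.89%). Against PMs, CD11b+ B cells had 8 higher and 11 lower (21.5% and 8.78%) as reported, 3 higher and 19 lower (13.2% and 11.6%) with median-ratio scaling, 4 higher and 14 lower (12.2% and 12.2%) with quantile normalization, 4 higher and 28 lower (38.8% and 31.3%) with limma on the normalized counts, 4 higher and 23 lower (39.7% and 30.9%) with edgeR and 4 higher and 22 lower (41.8% and 30.7%) with DESeq2 on the second table, and 3 higher and 23 lower (18.7% and 18.1%) with edgeR and 4 higher and 24 lower (20.2% and 19.3%) with DESeq2 over all genes. CD11b- B cells had 8 higher and 21 lower (25.8% and 11%) as reported, 5 (15.4%) higher without a filter, 3 higher and 32 lower (16.2% and 14.7%) with median-ratio scaling, 5 higher and 29 lower (16.3% and 14.8%) with quantile normalization, 3 higher and 33 lower (40.6% and 36%) with limma on the normalized counts, 5 higher and 32 lower (43.7% and 35.9%) with edgeR and 5 higher and 32 lower (40.4% and 35.6%) with DESeq2 on the second table, and 3 higher and 32 lower (21.1% and 20.9%) with edgeR and 3 higher and 33 lower (21.3% and 23%) with DESeq2 over all genes. Leaving out 1 library at a time gave 0 to 2 higher (0.0137% to 0.187%) between the B cell groups, 4 to 8 higher (14.7% to 22.2%) and 8 to 13 lower (6.3% to 9.15%) in CD11b+ B cells against PMs, and 4 to 7 higher (19.3% to 28%) and 16 to 28 lower (8.01% to 11.8%) in CD11b- B cells against PMs. The higher calls moved by over 1.5 times in CD11b+ B cells, to 5 (14.8%) without CD11b+ replicate 1 and 4 (14.7%) without CD11b+ replicate 2, and in CD11b- B cells, to 4 (19.3%) without CD11b- replicate 2, 5 (22.5%) without CD11b- replicate 3 and 5 (21.6%) without PM replicate 2. The direction changed with a call for 2 genes, both in CD11b+ B cells against PMs by limma on the normalized counts: Ssr1 (-0.55, adjusted p = 0.044) and Edem2 (-0.53, adjusted p = 0.0354). The cause of these changes was not tested. The second table holds genes that the authors selected on these libraries, so its adjusted p-values are not over all genes.

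CD11b+ and CD11b- libraries of the same title number deviated together with correlations of 0.29, -0.02 and 0.21. Replicates 1 and 3 of both groups also share a number in the descriptions and replicates 2 do not, and CD11b+ replicate 2 correlated best with CD11b- replicate 1. The positive correlations of 0.29 and 0.21 were thus those of the 2 pairs that share a description number. The labels tie no number to an animal or a day, so the numbers were not taken to pair the libraries in the main test. Whether these libraries were paired cannot be told from the labels. With a replicate block by title number limma called 3 higher and 0 lower (0.0735% and 0%) between the B cell groups (Derl3 added), 6 higher and 11 lower (18.6% and 7.89%) in CD11b+ and 9 higher and 21 lower (23.6% and 10.4%) in CD11b- B cells against PMs, and with a replicate block by the number in the descriptions 0 (0%) higher between the B cell groups (Creld2 and Sdf2l1 lost), a fit in which only 2 pairs inform the difference. Depth limits Derl3 in PMs, where its level rests on few reads.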
